A study of Mus musculus with 12 samples.

Results

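Mitophagy, the removal of mitochondria by autophagy, was examined through 9 mouse genes: the kinase gene Pink1, the membrane receptor genes Bnip3, Bnip3l and Fundc1, and the adaptor genes Optn, Sqstm1, Nbr1, Tax1bp1 and Calcoco1. They were matched by mouse symbol to 1 Ensembl gene each, 9 of the 49548 genes counted in every library. RNA was sequenced from the lumbar spinal cord of untreated 30-day-old mice, 8 MFN2 mice and 4 wild type (WT) mice, with 1 library per mouse. MFN2 mice are the MitoCharc1 line (L51Ugfm, labelled B6;D2), which models Charcot-Marie-Tooth disease type 2A (CMT2A) with a human MFN2 transgene carrying R94Q, driven by the rat Eno2 promoter, which acts mainly in neurons, and added to intact mouse Mfn2. All 8 MFN2 mice belong to 1 transgenic line. WT mice are labelled C57BL/6, whereas the methods call the controls littermates. Total counts were 19359454 to 26738930 per MFN2 library (median 23074723.5) and 19453238 to 23564568 per WT library (median 22537154.5).

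The libraries carry numbers in their labels: 41 to 43 are MFN2, 44 to 47 are WT and 72 to 76 are MFN2. No WT library has a number in the 72 to 76 run, so for those 5 MFN2 mice genotype and run of library numbers cannot be told apart. The genotype comparison was therefore made with all 8 MFN2 libraries, with libraries 41 to 43 and with libraries 72 to 76, each against the same 4 WT libraries, and the MFN2 libraries of both runs were compared with each other.

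PINK1 is a mitochondrial kinase that is imported and degraded in healthy mitochondria and builds up on the outer membrane when import fails. There it phosphorylates ubiquitin, and the ubiquitin chains that build up on the membrane are bound by adaptors that also bind LC3 on the forming autophagosome. BNIP3, NIX (the product of Bnip3l) and FUNDC1 are outer membrane proteins that bind LC3 family proteins directly, without ubiquitin, and are best known for mitophagy in hypoxia and, for NIX, in maturing red cells. Much of this control acts on proteins, which RNA libraries do not measure. MFN2, mitofusin 2, is an outer membrane fusion protein.

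Library 43 stood apart from the other cord libraries. The summed level of 8 forebrain marker genes was 4685 CPM (read counts scaled to library size) there, against 108.5 to 142.3 in WT and 140.3 to 207.4 in the other 7 MFN2 libraries, with Camk2a as the most abundant. Its summed caudal Hox level, which marks the thoracic and lumbar cord, was 42.75 CPM against 235.8 to 301.0 elsewhere, its motor neuron markers summed to 35.52 CPM against 153.6 to 370.1, and its oligodendrocyte markers to 8133 CPM against 21100 to 33950. By these markers library 43 went against its tissue label, and values without it are given beside many of the results it entered. Libraries 43 and 73 also held the highest summed Schwann cell markers (292.3 and 320.8 CPM), and libraries 73 and 47 the highest skeletal muscle markers (265.4 and 244.1 CPM).

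All 9 genes were expressed at readily counted levels in every library and passed the filter of more than 1 CPM in at least 3 libraries. In RPKM, which divides CPM by exon length, the scale on which genes of different length can be ordered, Pink1 was the highest in WT cord at 104 ± 11.7 (mean ± SD, n = 4), followed by Sqstm1 at 85.6 ± 7.51. Bnip3 followed at 36.8 ± 4.61 RPKM, Bnip3l at 28.1 ± 3.47, Fundc1 at 27.2 ± 1.36, Nbr1 at 25.6 ± 0.668 and Tax1bp1 at 23.5 ± 1.23. Optn, at 14.9 ± 1.06 RPKM, and Calcoco1, at 9.66 ± 1.28 RPKM, were the lowest. The WT ranges of neighbours overlapped for Pink1 and Sqstm1, Bnip3 and Bnip3l, Bnip3l and Fundc1, and Fundc1 and Nbr1. They were apart for Sqstm1 and Bnip3, Nbr1 and Tax1bp1, Tax1bp1 and Optn, and Optn and Calcoco1. Lengths were the union of all annotated exons, 9991 bases for Tax1bp1, so long isoforms that are little used lower a gene in this order.

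With all 8 MFN2 libraries, none of the 9 genes was called against WT, and the lowest estimates were those of Pink1 and Bnip3l. edgeR's quasi-likelihood test called 0 of the 9 genes at an FDR of 0.05, and 0 of all 15942 genes tested (0%). The study's own edgeR analysis, with generalized linear models at the same FDR, did report differentially expressed genes between these genotypes. The reason for that difference was not tested. At an unadjusted p under 0.05 the quasi-likelihood test passed Pink1 and Bnip3l, 2 of the 9, beside 15% of all tested genes. DESeq2 also called 0 of the 9, and 200 genes in all. The median log2 fold change of the 9 genes was -0.078, against 0.0038 over all tested genes. Without library 43 none of the 9 was called either, the median was -0.037 and the values ran from -0.40 for Pink1 to 0.072 for Optn, with Sqstm1 at 0.049.

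**Figure D1:**
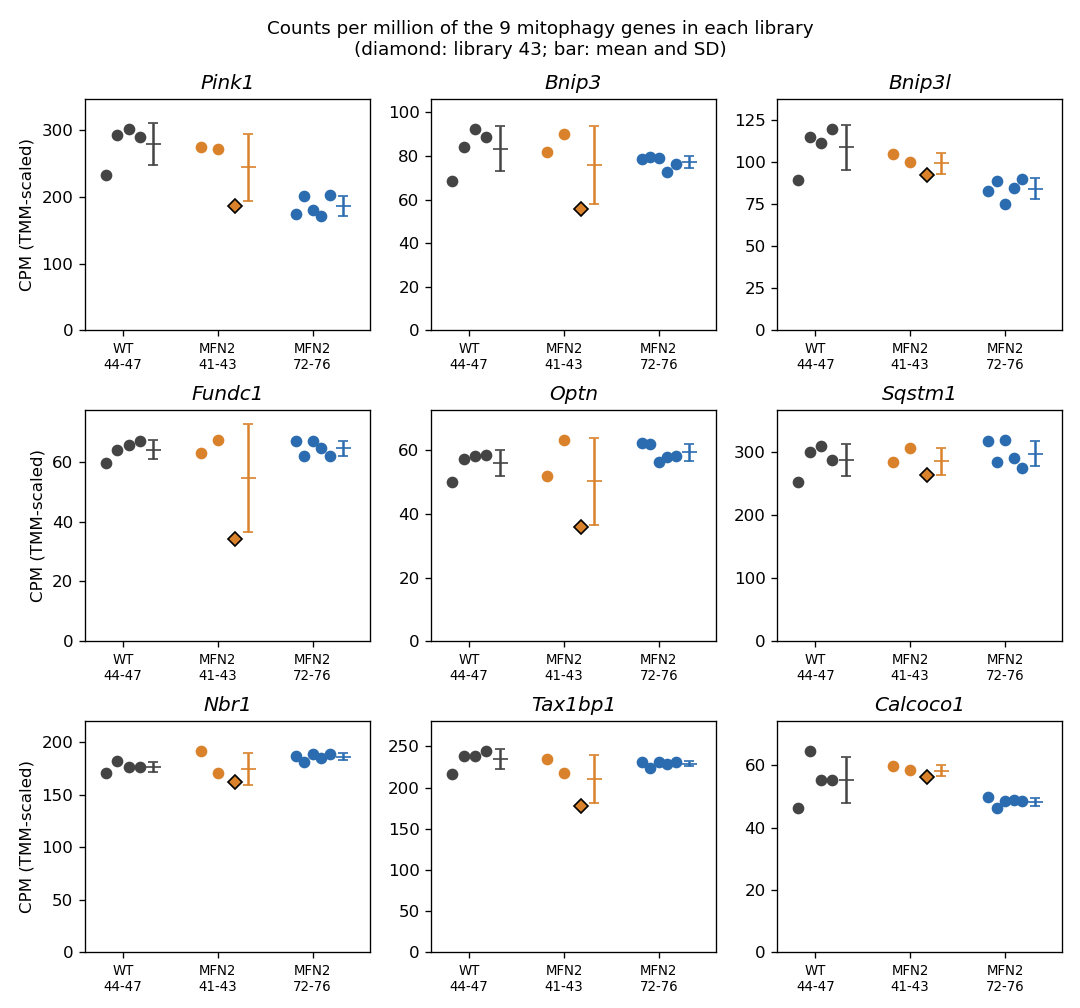
CPM of each of the 9 genes (vertical axes, scaled by trimmed mean of M-values, from 0) in the WT libraries, MFN2 libraries 41 to 43 and MFN2 libraries 72 to 76; each point is 1 library, the diamond is library 43, and the bars are mean and SD. Pink1 in libraries 72 to 76 lies below every WT library, Sqstm1 groups overlap, and library 43 is the lowest point for Bnip3, Fundc1, Optn, Nbr1 and Tax1bp1.

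Pink1 (ENSMUSG00000028756, GRCm38 chr4:138313409-138326307, minus strand) was lower in MFN2 libraries 72 to 76 than in WT. The 4 WT libraries, 44 to 47, held 232, 293, 301 and 290 CPM. MFN2 libraries 41 to 43 held 274, 272 and 186 CPM, and libraries 72 to 76 held 174, 201, 181, 171 and 202 CPM. Libraries 41 and 42 lay within the WT range, whereas library 43 and all 5 libraries of the 72 to 76 run lay below every WT library. In the 72 to 76 run Pink1 fell by 33.4% (log2 fold change -0.59, SE 0.080, 95% interval -0.76 to -0.41, edgeR adjusted p = 0.0006355).

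That comparison called 23.8% of all 15743 genes tested. Of all tested genes 12.7% were called lower, and in 10.3% every MFN2 library lay below every WT library. Pink1 stood at position 177 by p among the tested genes. Within the 41 to 47 run its log2 fold change was -0.18 (edgeR adjusted p = 0.687), and without library 43 it was -0.021 (adjusted p = 0.990). Over all 8 MFN2 libraries the value was -0.42 (95% interval -0.72 to -0.12, edgeR adjusted p = 0.278), and without library 43 it was -0.40 (adjusted p = 0.148).

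The 250 bases upstream of the RefSeq start of Pink1 (GRCm38.p6, chr4:138326297-138326546, minus strand) are shown with those of Bnip3 (chr7:138909507-138909756, minus strand), a textbook target of the hypoxia-inducible factors, because the promoters of these receptors are often discussed through the hypoxia response element. Capitals mark ACGTG or GCGTG, the cores of that element, read on either strand.
Pink1: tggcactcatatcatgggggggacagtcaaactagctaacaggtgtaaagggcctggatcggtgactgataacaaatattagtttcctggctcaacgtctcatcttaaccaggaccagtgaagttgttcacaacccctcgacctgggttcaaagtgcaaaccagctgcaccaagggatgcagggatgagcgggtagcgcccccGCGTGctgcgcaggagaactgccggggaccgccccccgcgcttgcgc
Bnip3: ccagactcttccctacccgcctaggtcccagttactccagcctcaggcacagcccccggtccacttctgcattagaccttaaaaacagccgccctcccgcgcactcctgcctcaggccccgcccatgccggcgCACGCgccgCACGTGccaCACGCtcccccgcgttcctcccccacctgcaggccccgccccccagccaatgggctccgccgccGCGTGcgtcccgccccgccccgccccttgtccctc
The Pink1 window held 1 GCGTG and no ACGTG. The Bnip3 window held 3 GCGTG and 2 ACGTG, the latter being both strands of 1 CACGTG. Of the 9 genes 8 had such a window in RefSeq, 10 windows in all, and 6 genes had either core in at least 1 window. Over all 32851 mouse windows of this length, 16.6% held ACGTG, 28.2% GCGTG, 38.6% either and 6.02% CACGTG. The antioxidant response core TGACNNNGC, read on both strands, was in 10.2% of all windows and was not among the letters of the Sqstm1 window. These matches describe sequence only. No RefSeq window was matched to Bnip3l.

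Of the membrane receptors, Bnip3l was lower in MFN2 libraries 72 to 76 than in WT, while Bnip3 and Fundc1 were not called. Bnip3l (ENSMUSG00000022051, GRCm38 chr14:66985239-67008877, minus strand) held 89.1, 115, 111 and 119 CPM in WT libraries 44 to 47. It held 105, 100 and 92.3 CPM in MFN2 libraries 41 to 43 and 82.6, 88.9, 74.9, 84.2 and 90.0 CPM in libraries 72 to 76. The groups overlapped only through WT library 44 and library 76, and the other 4 libraries of the run lay below every WT library. Bnip3l fell by 22.7% (log2 fold change -0.37, SE 0.082, edgeR adjusted p = 0.00785), and with Pink1 it made 2 of the 9 genes called lower in this comparison, beside 12.7% of all tested genes. Within the 41 to 47 run its log2 fold change was -0.12 (edgeR adjusted p = 0.707), and without library 43 it was -0.074 (adjusted p = 0.958). The processed pseudogene Bnip3l-ps received 10 to 24 counts per library.

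Bnip3 (ENSMUSG00000078566, GRCm38 chr7:138890836-138909519, minus strand) held 68.5, 84.3, 92.2 and 88.5 CPM in WT libraries 44 to 47. MFN2 libraries 41 to 43 held 81.9, 90.1 and 55.9 CPM, and libraries 72 to 76 held 78.4, 79.5, 78.9, 72.4 and 76.4 CPM. The 72 to 76 libraries lay inside the WT range, and library 43 was the lowest of all 12. The log2 fold change of Bnip3 was -0.11 in the 72 to 76 run (95% interval -0.28 to 0.049, edgeR adjusted p = 0.293) and -0.12 both in the 41 to 47 run (adjusted p = 0.795) and over all MFN2 libraries (adjusted p = 0.595). Without library 43 the last values were 0.055 and -0.065. Without WT library 44, the lowest WT library for all 9 genes, the 72 to 76 value was -0.20 and passed the test (edgeR adjusted p = 0.0137).

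Fundc1 (ENSMUSG00000025040, GRCm38 chrX:17556564-17572325, minus strand) showed the widest gap between library 43 and the rest. WT libraries 44 to 47 held 59.5, 64.0, 65.6 and 66.8 CPM, MFN2 libraries 72 to 76 held 67.0, 62.0, 67.0, 64.5 and 62.0 CPM, and libraries 41 and 42 held 62.8 and 67.1 CPM. Library 43 held 34.1 CPM. Its log2 fold change was 0.010 in the 72 to 76 run (95% interval -0.10 to 0.12, edgeR adjusted p = 0.910). In the 41 to 47 run it was -0.22 with library 43 (edgeR adjusted p = 0.709) and 0.031 without it (adjusted p = 0.977).

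**Figure D2:**
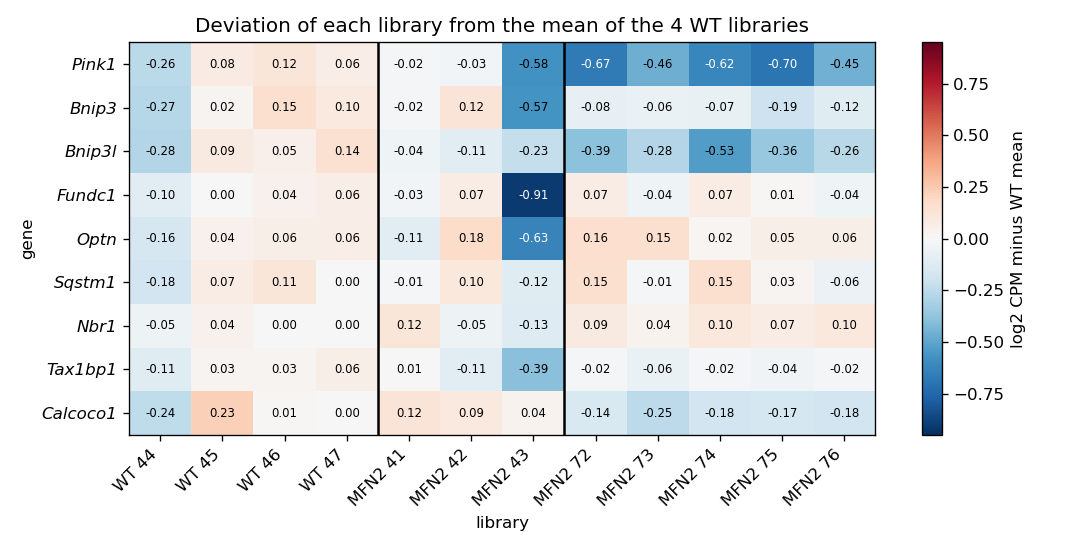
Heat map of log2 CPM of each gene (rows) in each library (columns) minus the mean of the 4 WT libraries; blue is lower and red higher, and black lines part WT, MFN2 libraries 41 to 43 and MFN2 libraries 72 to 76. The Pink1 and Bnip3l rows are blue through libraries 72 to 76. The Calcoco1, Bnip3 and Tax1bp1 rows are also below the WT mean in each of those libraries, by less. The library 43 column has a median of -0.394.

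With the filter and scaling used throughout, none of the 5 adaptor genes was called by edgeR in MFN2 libraries 72 to 76 against WT, and Calcoco1 passed an unadjusted p of 0.05. DESeq2 called none of them either, beside 27% of all genes, while edgeR called Nbr1 with library size as the only scaling and Calcoco1 with no filter. Sqstm1 (ENSMUSG00000015837, GRCm38 chr11:50199366-50210827, minus strand) encodes p62, the ubiquitin and LC3 adaptor most often followed as a readout of autophagy. It held 252, 300, 310 and 287 CPM in WT libraries 44 to 47, 285, 307 and 264 CPM in MFN2 libraries 41 to 43, and 318, 284, 319, 292 and 276 CPM in libraries 72 to 76. The 3 sets overlapped, with means of 287 ± 25.2 CPM in WT (SD, n = 4) and 293 ± 19.7 CPM in MFN2 (SD, n = 8). Without library 43 the MFN2 mean was 297 ± 17.3 CPM (SD, n = 7). The log2 fold change of Sqstm1 was 0.028 over all MFN2 libraries (edgeR adjusted p = 0.861) and 0.049 in the 72 to 76 run (95% interval -0.097 to 0.20, adjusted p = 0.636). Sqstm1 shares 580 exonic bases with Mrnip on the other strand, which received 1736 counts over the 12 libraries beside 79517 for Sqstm1. Whether the counting used strand is not given in the sources used here.

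Optn (ENSMUSG00000026672, GRCm38 chr2:5020642-5064051, minus strand) encodes optineurin, an adaptor phosphorylated by the kinase TBK1. Its level was 49.9 to 58.3 CPM in WT, 56.4 to 62.1 CPM in MFN2 libraries 72 to 76, and 51.7, 63.0 and 35.9 CPM in libraries 41 to 43. The log2 fold change of Optn in the 72 to 76 run was 0.084 (95% interval -0.043 to 0.21, edgeR adjusted p = 0.320).

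Nbr1 (ENSMUSG00000017119, GRCm38 chr11:101552149-101581951, plus strand), a relative of p62 in domain layout, was the least variable of the 9 genes in WT. It held 170 to 182 CPM there, 181 to 189 CPM in libraries 72 to 76, and 191, 171 and 162 CPM in libraries 41 to 43. Of the 8 MFN2 libraries 5 lay above every WT library, 4 of them in the 72 to 76 run, and its log2 fold change in that run was 0.075 (95% interval -0.014 to 0.16, edgeR adjusted p = 0.204). With library size as the only scaling the value was 0.15 and passed the test (adjusted p = 0.0186).

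Tax1bp1 (ENSMUSG00000004535, GRCm38 chr6:52713729-52766780, plus strand), a ubiquitin-binding autophagy receptor, held 216 to 244 CPM in WT and 224 to 231 CPM in libraries 72 to 76. Libraries 41 to 43 held 235, 218 and 178 CPM. Its log2 fold change in the 72 to 76 run was -0.035 (edgeR adjusted p = 0.623), and with library size as the only scaling it was 0.037 (adjusted p = 0.568).

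Calcoco1 (ENSMUSG00000023055, GRCm38 chr15:102706777-102722178, minus strand), a relative of the mitophagy adaptor NDP52 that is known as a receptor for endoplasmic reticulum and Golgi autophagy, was called between the MFN2 libraries of both runs and not against WT. WT libraries 44 to 47 held 46.4, 64.4, 55.4 and 55.2 CPM. MFN2 libraries 41 to 43 held 59.9, 58.6 and 56.4 CPM and libraries 72 to 76 held 49.8, 46.3, 48.4, 48.9 and 48.4 CPM. Libraries 72 to 76 all lay below libraries 41 to 43, library 43 included, and WT library 44 was near their level. Against WT the log2 fold change in the 72 to 76 run was -0.20 (SE 0.076, edgeR adjusted p = 0.0789), and without library 44 it was -0.27 (adjusted p = 0.0061).

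**Figure D3:**
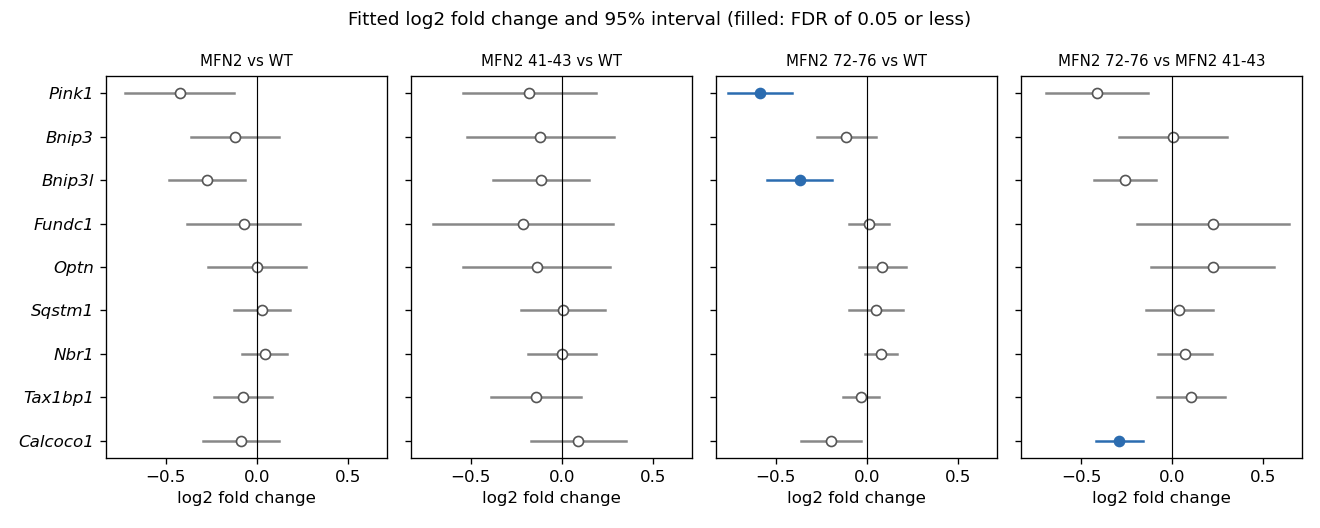
Fitted log2 fold change with its 95% interval (horizontal axis) of each of the 9 genes in the 4 comparisons; filled points passed an FDR of 0.05. Pink1 and Bnip3l are filled in libraries 72 to 76 against WT and Calcoco1 in libraries 72 to 76 against 41 to 43, and no gene is filled with all 8 MFN2 libraries.

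Within the 41 to 47 run, the only setting with both genotypes, none of the 9 genes was called by edgeR, against 1 of 15200 genes tested (0.00658%). At an unadjusted p under 0.05 it passed 0 of the 9, beside 7.12% of all tested genes, and DESeq2 called 0 of the 9 and 5 genes in all. The log2 fold changes ran from -0.22 for Fundc1 to 0.090 for Calcoco1 (median -0.12), and 7 of the 9 were below 0, beside 50.3% of all tested genes. Without library 43, 3 of the 9 were below 0, the median was 0.045 and the values ran from -0.074 for Bnip3l to 0.11 for Calcoco1.

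Between MFN2 libraries 72 to 76 and 41 to 43, all of 1 genotype, Calcoco1 was the only one of the 9 genes called (log2 fold change -0.29, SE 0.057, edgeR adjusted p = 0.0444), where 2.19% of 15633 genes were called and 1.18% called lower. Leaving out any library other than 43 lost that call (edgeR adjusted p up to 0.133), as did 3 of the other settings tried. Bnip3l also lay lower in every library of the 72 to 76 run (log2 fold change -0.26, edgeR adjusted p = 0.0976), so that 2 of the 9 genes had libraries 72 to 76 all below libraries 41 to 43, beside 8.63% of all tested genes. Pink1 was at -0.41 (edgeR adjusted p = 0.103), its groups overlapping through library 43. Without library 43 the same test called 2375 genes (15.3%) in place of 342 and 3 of the 9 genes: Pink1 at -0.56 (edgeR adjusted p = 0.00146), Bnip3l at -0.30 (adjusted p = 0.0207) and Calcoco1 at -0.30 (adjusted p = 0.00763). This comparison holds no WT library, and the MFN2 libraries 41 and 42 that remained were within the WT range for Pink1.

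The order of the 2 most abundant genes differed between libraries. Per exon length, Pink1 exceeded Sqstm1 in 6 of the 12 libraries, namely all 4 WT libraries and MFN2 libraries 41 and 42. Where the order turns depends on the annotated lengths used, 2673 bases for Pink1 and 3356 for Sqstm1. In CPM Pink1 exceeded Sqstm1 only in WT library 47 (290 against 287). The ratio of Pink1 to Sqstm1 in RPKM was 1.157, 1.224, 1.219 and 1.267 in WT libraries 44 to 47. It was 1.207, 1.114 and 0.884 in MFN2 libraries 41 to 43, and 0.686, 0.889, 0.712, 0.737 and 0.923 in libraries 72 to 76. WT library 44, low for both genes in CPM, had a ratio close to that of the other WT libraries.

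**Figure D4:**
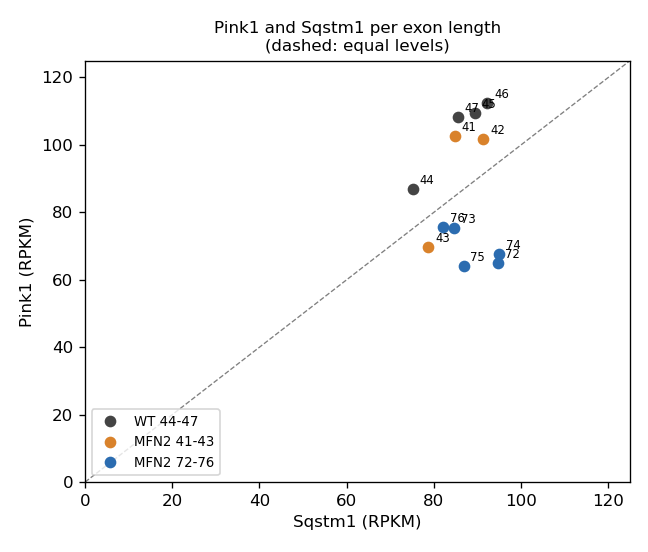
RPKM of Pink1 (vertical axis) against RPKM of Sqstm1 (horizontal axis) in each library, numbered by library. The dashed line marks equal RPKM, and the side on which a library lies depends on the exon lengths used. The 4 WT libraries and MFN2 libraries 41 and 42 lie above the line, and libraries 43 and 72 to 76 lie below it.

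Genes around PINK1 were described by lists. Of 22 genes for PINK1 import, its processing and the ubiquitin step, 1 rose and 6 fell in MFN2 libraries 72 to 76 against WT, where 23.8% of all genes were called and 12.7% called lower (median log2 fold change -0.10, against -0.00066 over all genes). With library size as the only scaling 3 rose and 4 fell, beside 26.5% of all genes called and 8.54% called lower. The gene that rose was Usp15, a deubiquitinase, named after its values were seen (log2 fold change 0.19, edgeR adjusted p = 0.00569). Timm23, the channel of the inner membrane import complex, fell by 0.32 on the log2 scale (edgeR adjusted p = 0.0191), a call lost with library size as the only scaling (adjusted p = 0.0554). March5, an outer membrane ubiquitin ligase, fell by 0.31 (edgeR adjusted p = 0.00738), and Mul1, another ligase of that membrane, fell by 0.30 (adjusted p = 0.00893). Mouse Mfn2 was at 213 ± 15.1 CPM in WT (SD, n = 4) and 199 ± 9.60 CPM in libraries 72 to 76 (SD, n = 5), with an edgeR adjusted p of 0.220.

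The LC3 and GABARAP genes, whose products all these receptors bind, were also counted. Of 5 genes 3 fell in libraries 72 to 76 (median log2 fold change -0.21), beside 12.7% of all genes called lower in this comparison. Map1lc3b held 138 to 169 CPM in WT and 112 to 118 CPM in libraries 72 to 76, without overlap (log2 fold change -0.43, SE 0.056, edgeR adjusted p = 0.000478). For 10.3% of all tested genes, libraries 72 to 76 likewise all lay below every WT library. In libraries 41 to 43 Map1lc3b held 146, 147 and 98.7 CPM, so library 43 was again the low one. Gabarapl1 fell by 0.22 (edgeR adjusted p = 0.0174) and Map1lc3a by 0.21 (adjusted p = 0.0331). With library size as the only scaling only Map1lc3b fell, and 1 gene of the list rose, beside 26.5% of all genes called. Without library 73 the Map1lc3a call was lost (adjusted p = 0.0700).

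Of 12 further receptors and adaptors 11 were tested, and 1 was called in that run, beside 23.8% of all genes: Fkbp8, an outer membrane LC3 receptor, fell by 0.21 (edgeR adjusted p = 0.0252). That call was lost without library 73 (edgeR adjusted p = 0.0624) and with library size as the only scaling (-0.14, adjusted p = 0.0717). Under that scaling 1 other gene of the list rose, beside 26.5% of all genes called. Of 8 kinases and phosphatases that act on the receptors, 1 rose and 2 fell, beside the same share of all genes. Tbk1, which phosphorylates optineurin and p62, rose by 0.25 (edgeR adjusted p = 0.0141), while Src, which phosphorylates FUNDC1, fell by 0.21 (adjusted p = 0.0148) and the casein kinase 2 subunit gene Csnk2a1 fell by 0.16 (adjusted p = 0.0412). With library size as the only scaling both falls were lost (Src adjusted p = 0.0650, Csnk2a1 -0.090 and 0.260), and Csnk2a1 was also lost without library 73 (0.0770) or WT library 44 (0.0608).

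Among 7 genes for transcription factors and regulators tied to these receptors, 1 rose and 2 fell in the same run, where 23.8% of all genes were called. Hif1a, encoding the oxygen-regulated factor known to act on Bnip3, rose by 0.19 (edgeR adjusted p = 0.0244). Epas1, encoding the related HIF-2 alpha, fell by 0.29 (edgeR adjusted p = 0.00366), as did Tfeb, a regulator of lysosomal genes, by 0.32 (adjusted p = 0.0448). The Tfeb call was lost with library size as the only scaling (-0.24, adjusted p = 0.0881). Of 14 hypoxia-responsive genes 4 fell and none rose (median log2 fold change -0.16), among them Egln3 by 0.42, Pdk1 by 0.30 and Egln1 by 0.28 (edgeR adjusted p = 0.0103, 0.0114 and 0.00252). Of 7 tested targets of Nrf2, the antioxidant factor that acts on Sqstm1, 1 fell, the cystine transporter gene Slc7a11 by 0.46 (edgeR adjusted p = 0.0391). It was lost with library size as the only scaling (-0.39, adjusted p = 0.0817) and without WT library 44 (-0.29, adjusted p = 0.0586, where 1 other gene of the list fell), and with library size only 0 of the 7 were called. Of the 73 tested genes on all these lists, 3 rose and 19 fell in libraries 72 to 76 against WT, beside 23.8% of all genes called and 12.7% called lower. With library size as the only scaling 7 rose and 9 fell, beside 26.5% of all genes called and 8.54% called lower. In the other 3 comparisons edgeR called 0 of the 73. At an unadjusted p under 0.05 it passed 6 with all MFN2 libraries, 2 in libraries 41 to 43 and 23 between the MFN2 runs, beside 15%, 7.12% and 24.6% of all tested genes. Without library 43 these were 17, 0 and 26, beside 21.2%, 5.72% and 31.6% of all tested genes. Between the MFN2 runs 3 of the 73 were then called higher and 11 lower, beside 15.3% of all genes called. DESeq2, with library 43, called 0, 0 and 10 of them, beside 1.25%, 0.0329% and 11.5% of all genes.

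Some markers of microglia and astrocytes were also called lower in libraries 72 to 76 than in WT. In bulk tissue, fewer cells of a type and less RNA per cell cannot be told apart. Of 6 microglial markers 5 were lower in libraries 72 to 76 than in WT, with Cx3cr1 at a log2 fold change of -0.51 (edgeR adjusted p = 0.0011), beside 12.7% of all genes called lower. Without library 73, or with library size as the only scaling, 3 of the 6 were called lower, beside 10.6% and 8.54% of all genes. The microglial sum, with Csf1r as its most abundant gene, was 106.7, 143.7, 125.5 and 130.7 CPM in WT, 168.0, 104.8 and 169.4 CPM in libraries 41 to 43, and 97.0, 92.9, 93.9, 80.0 and 103.4 CPM in libraries 72 to 76. All 5 sums of the 72 to 76 run lay below every WT sum. Among single genes, 10.3% of all those tested were lower without overlap in this comparison.

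In the same comparison, where 23.8% of all genes were called and 12.7% called lower, 3 of 5 astrocyte markers were lower (Gfap, Slc1a2 and Aldh1l1). Of these 5 markers 2 were lower without library 73 or with library size as the only scaling, beside 10.6% and 8.54% of all genes. Their sum, with Slc1a2 as the most abundant gene, was 6453, 7320, 6346 and 6697 CPM in WT, 7979, 5558 and 5473 CPM in libraries 41 to 43, and 4603, 4976, 4729, 4636 and 6030 CPM in libraries 72 to 76. Of 6 general neuronal markers Syt1 was higher (log2 fold change 0.47, edgeR adjusted p = 0.0327) and Snap25 lower (-0.18, adjusted p = 0.0414). No neuronal marker was called lower with library size as the only scaling or without library 73, while 1 was still called higher. The neuronal sum was 3317 ± 200.3 CPM in WT (SD, n = 4) and 3090 ± 148.5 CPM in libraries 72 to 76 (SD, n = 5). None of the 6 motor neuron markers and none of the 6 oligodendrocyte markers was called by edgeR or DESeq2 in that run, with 1 of each list at an unadjusted p under 0.05 by edgeR. No marker of these 5 cell types was at 0 in any library. Of 4 endothelial markers Cldn5 was lower (log2 fold change -0.82, edgeR adjusted p = 0.00685), while the sum of the list was 104.5 to 130.7 CPM in WT and 122.5 to 153.2 CPM in libraries 72 to 76. Of 7 tested forebrain markers Nrgn was called higher in that run than in WT (log2 fold change 0.57, edgeR adjusted p = 0.00548). The list sums were 108.5 to 142.3 CPM in WT and 140.3 to 176.3 CPM in that run. No caudal Hox, Schwann cell or skeletal muscle marker was called by edgeR, with 1 caudal Hox gene and none of the others at an unadjusted p under 0.05, and DESeq2 called 1 caudal Hox gene higher. Without WT library 44 edgeR called 2 neuronal markers lower, 1 endothelial marker higher beside the 1 lower, and 2 forebrain markers and 1 caudal Hox gene higher. That fit called 4517 of all 15636 genes tested, 2146 higher and 2371 lower. The part of these markers in the lower Pink1 and Bnip3l was not tested.

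The genes most like each of the 9 over the 12 libraries were sought among about 15900 tested genes. The measure was the root mean square difference in centred log2 CPM. Gab2 was the most like Pink1 (0.0768, where Pink1 itself varied by 0.306), Minos1 the most like Bnip3 (0.0549) and Rpl28 the most like Bnip3l (0.0547). Dnm3 was the most like Fundc1 (0.0290) and Map3k4 the most like Optn (0.0710). For Sqstm1 it was Supt5 (0.0466), for Nbr1 Api5 (0.0369), for Tax1bp1 Sars (0.0346) and for Calcoco1 Apbb1 (0.0417). Without library 43, over 11 libraries, the nearest gene was the same for 4 of the 9 (Bnip3l, Fundc1, Sqstm1 and Calcoco1), and for Pink1 it was Rpl41 (0.0639), with Gab2 at position 6. Among the 9 genes themselves, Nbr1 and Tax1bp1 were the nearest pair (0.0793), and Pink1 was in none of the 4 nearest pairs. Genes that vary little are near each other by this measure, whatever their profiles. Nbr1 itself varied by 0.0703 and Tax1bp1 by 0.114, against 0.306 for Pink1, so the pair is not evidence of a shared profile. These pair distances include library 43 and were not computed without it.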

How the data were processed

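RNA from 12 spinal cords was sequenced in paired-end reads on a NextSeq 500. The sources differ on the library: the labels name a SMARTer mRNA-Seq kit, while the study's methods name a stranded SMARTer total RNA kit and also poly(A) mRNA sequencing, so the selection of RNA and the strandedness are not settled. Reads were aligned by the authors with STAR to GRCm38.p6 (submitters' processing notes). The deposited values are raw read counts per gene, unnormalized, 1 file per library. Neither the counting program nor its use of strand is given in the sources used here. The 9 genes and all gene lists were chosen with earlier results of these data known.

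Counts were tested with edgeR 4.0.16 in R 4.3.3 (quasi-likelihood test, trimmed mean of M-values scaling, genes above 1 CPM in at least 3 libraries of the fit, Benjamini-Hochberg adjustment over all tested genes, FDR 0.05), after tests on simulated data. Printed CPM used 1 scaling over all 12 libraries. RPKM used union exon lengths. Likeness used log2 CPM with a prior count of 2. Of each related list, up to 3 called genes with the largest absolute fold change were named; 1 gene of these lists is not reported here. Intervals are 95%. Alternatives were DESeq2 1.42.0, other scalings and filters, a fit with a term for the library number run, and fits without 1 library each. The related lists were refitted under 5 of these, chosen after seeing the data, as was likeness without library 43. Samples of a group were separate mice. No 2 libraries of the same genotype agreed within counting noise (lowest chi-square per degree of freedom 4.986). Promoter sequences are from RefSeq.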

Additional observations from a re-analysis of the deposited data

Results flagged for a closer look

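Within-group outliers were sought for each of the 9 genes in each genotype, 18 groups in all, as the gap of the highest or lowest library to its neighbour divided by the range of log2 CPM. Chance alone would mark about 1 in 20 such groups, and 6 were marked. In MFN2 mice, library 43 was the lowest for Fundc1 (gap 0.884 of the range, 34.1 CPM), Tax1bp1 (0.721, 178 CPM), Optn (0.648, 35.9 CPM) and Bnip3 (0.543, 55.9 CPM). This is the library with high forebrain and low caudal Hox markers. In WT mice, library 44 was the lowest for Optn (0.887, 49.9 CPM) and Pink1 (0.852, 232 CPM). The groups are not independent, since the genes share libraries.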

How the results depend on the processing

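Lower Pink1 and Bnip3l in libraries 72 to 76 against WT passed the threshold under every alternative run and with each library left out. With 1 library left out Pink1 ran from -0.67 to -0.55 and Bnip3l from -0.45 to -0.32, and with library size only they were -0.51 and -0.30. Of all results under alternatives other than leaving out a library, 42 counts kept within 1.5 times and 212 fold changes of the 9 genes kept direction and side of the threshold. No cause was tested for the changes that follow. DESeq2 called 200 genes (121 higher, 79 lower) with all MFN2 libraries in place of 0, 5 in place of 1 in libraries 41 to 43, and 1795 in place of 342 between the MFN2 runs, where it called 2 of the 9 genes (Bnip3l and Calcoco1). No filter left 0 genes in libraries 41 to 43. Calcoco1 between the MFN2 runs was lost, leaving 0 of the 9 genes called, with library size only, with no filter and with CPM above 1 in every library.

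With library size only, the calls in libraries 72 to 76 against WT were 2822 higher and 1345 lower in place of 1746 and 2000, and between the MFN2 runs 281 and 105 in place of 157 and 185. That scaling moved Tax1bp1 to 0.037 in libraries 72 to 76 and Nbr1 to 0.0028 in libraries 41 to 43, and no filter moved Sqstm1 there to -0.0047. In libraries 72 to 76 no filter added Calcoco1 to the calls (-0.21, adjusted p = 0.0268 by edgeR). With a term for the library number run, 0 genes were called with all MFN2 libraries (2381 at an unadjusted p under 0.05), and Optn (-0.15), Sqstm1 (-0.0097), Nbr1 (-0.016) and Calcoco1 (0.074) changed sign.

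Leaving out 1 library gave 0 to 19 genes with all MFN2 libraries (19 without library 43, 7 without 41, 1 without 76), 0 to 2 in libraries 41 to 43 (2 without library 41, 0 without any WT library), 2350 to 4517 in libraries 72 to 76 (2350 without WT library 45) and 31 to 2375 between the MFN2 runs (2375 without library 43, 234 without 42 and 31 to 85 without any other). Of the 9 genes, 0 to 0, 0 to 0, 2 to 4 and 0 to 3 were called; the 4 were without WT library 44 and the 3 without library 43, while each other library left out lost the Calcoco1 call between the MFN2 runs. Signs changed for Fundc1 (-0.11 to 0.015), Optn (-0.050 to 0.072) and Sqstm1 (-0.029 to 0.067) with all MFN2 libraries. They changed for Bnip3 (-0.26 to 0.055), Fundc1 (-0.39 to 0.031), Optn (-0.34 to 0.048), Sqstm1 (-0.051 to 0.052) and Nbr1 (-0.062 to 0.045) in libraries 41 to 43. They also changed for Fundc1 (-0.023 to 0.033) and Sqstm1 (-0.0084 to 0.085) in libraries 72 to 76, and for Bnip3 (-0.17 to 0.14) and Fundc1 (-0.018 to 0.39) between the MFN2 runs.

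No paired analysis was made, because the labels match no MFN2 mouse to a WT mouse. Depth was of the same order in all libraries. The limits are the 4 WT libraries, all in 1 run of library numbers, and bulk tissue in which the transgene is driven mainly in neurons.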
